A study of Mus musculus with 10 samples.

Results

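A set of 10 genes of the hypoxia response outside glycolysis were examined in interscapular brown adipose tissue of the mouse (iBAT), a fat depot that burns fuel to make heat. They were 3 oxygen-regulated transcription factors (Hif1a, Epas1 and Hif3a), the oxygen sensors Egln1 and Egln3, and the targets Ankrd37, Vegfa, Adm, Bnip3 and Ndrg1. The set was chosen by the Ankrd37 counts themselves, since this gene stood high among genes ordered by their difference between ΔGm15551 and wild type mice, and the other 9 were added as factors or targets of the same pathway. The 10 members were taken by symbol from 54347 gene records, with 30984 counted in any mouse and 13733 tested. Of the members, 9 were tested and Hif3a fell under the filter on low counts.

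The hypoxia response runs through the hypoxia-inducible factors (HIFs). Their alpha subunits are made continuously, hydroxylated by the oxygen-dependent EGLN enzymes, and degraded when oxygen is plentiful, so that much of the control of the pathway lies at the protein and not at the mRNA. When oxygen is short, the alpha subunits pair with ARNT and bind a short core sequence near target genes for blood vessel growth, mitochondrial turnover and metabolism. Brown fat is rich in vessels and mitochondria, and its oxygen use rises in the cold.

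All 10 mice were on the C57BL/6N background and 12 weeks of age, and were kept alone in a cage at 4 °C for 24 h before the tissue was taken. The 5 ΔGm15551 mice (replicates 1, 2, 4, 5 and 7) were knockouts from a line made by CRISPR/Cas9, in which a deletion includes exon 1 of the long non-coding RNA gene Gm15551, and the 5 wild type mice (replicates 2, 3, 5, 6 and 7) carried the intact gene. The labels give the same strain name to both genotypes. Poly A RNA was sequenced, with totals of 9680976 to 15771170 counts per mouse. Gm15551 had 0 counts in all 5 ΔGm15551 mice, where a count of 0 allows up to 3 counts, and 1, 2, 6, 7 and 0 counts in the wild type mice.

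The summed level of 10 brown adipocyte markers was 25690 to 30320 CPM (counts scaled to a common library size with TMM factors), with none of the markers at 0 in any mouse. Other cell types varied more. The 8 endothelial markers summed to 1640 and 1384 CPM in ΔGm15551 mice 1 and 5 and to 1562 CPM in wild type mouse 7, against 876 to 1262 CPM in the other 7 mice. The 6 red blood cell markers summed to 1435 to 2547 CPM in those 3 mice and to 614 to 1084 CPM in the rest. The 10 skeletal muscle markers summed to 2616 CPM in wild type mouse 7, 1566 CPM in ΔGm15551 mouse 4 and 723 CPM in ΔGm15551 mouse 1, and to 1.07 to 230 CPM elsewhere, where 4 mice had 4 or 5 of these markers at 0. Summed over 6 macrophage markers the level was 25.7 to 54.3 CPM, and over 5 stromal markers 178 to 404.7 CPM, and none of the markers in these 6 lists passed the test between genotypes. In bulk tissue, fewer cells of a type and less RNA per cell cannot be told apart.

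The sequences upstream of the annotated starts are given first, since the HIF core lies there in some of these genes. RefSeq windows on GRCm38.p6, from 250 bases before a start to 50 after it, were given for 8 of the 10 members (9 windows, with 2 for Vegfa). They were searched for ACGTG and GCGTG on both strands, which read CACGT and CACGC on the opposite strand, so that a CACGTG counts on both. Epas1 and Ndrg1 were not matched. Ankrd37 is shown as the gene that led to the set, Bnip3 as the member with the most matches (5), and the first Vegfa window as the one with none. Each run holds the 250 bases before the start on the minus strand, 5′ to 3′, with every match in capitals.
Ankrd37 (chr8:45999851-46000100): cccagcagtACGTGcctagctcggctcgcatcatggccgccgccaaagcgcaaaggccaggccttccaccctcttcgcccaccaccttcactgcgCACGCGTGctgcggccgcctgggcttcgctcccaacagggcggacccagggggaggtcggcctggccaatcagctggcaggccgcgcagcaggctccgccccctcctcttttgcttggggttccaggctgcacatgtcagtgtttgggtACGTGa
Bnip3 (chr7:138909507-138909756): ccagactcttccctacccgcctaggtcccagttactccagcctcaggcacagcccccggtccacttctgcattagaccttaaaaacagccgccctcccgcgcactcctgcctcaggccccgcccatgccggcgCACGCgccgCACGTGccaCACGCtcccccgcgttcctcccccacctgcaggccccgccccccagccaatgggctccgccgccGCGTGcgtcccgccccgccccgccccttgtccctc
Vegfa (chr17:46032378-46032627): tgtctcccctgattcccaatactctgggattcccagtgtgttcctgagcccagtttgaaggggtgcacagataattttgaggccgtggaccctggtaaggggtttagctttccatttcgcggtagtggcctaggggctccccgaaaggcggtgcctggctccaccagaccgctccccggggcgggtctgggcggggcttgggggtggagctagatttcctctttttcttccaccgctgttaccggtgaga
Counted from the start, the 4 matches of Ankrd37 began at -241, -155, -152 and -6. The window lies inside the Ankrd37 gene as GENCODE draws it, because other transcripts begin further upstream, and its last bases fall in the first exon of a GENCODE transcript. Hif1a had 3 matches, Egln1, Adm, Hif3a and the second Vegfa window had 2 each, and Egln3 had 1. Of all 32851 RefSeq windows of this length, 43.8% held at least 1 match and 3.86% held 4 or more. A match of these letters is a description of the window and not a binding site.

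Levels were compared between genes as CPM per kb of exonic length. Epas1, which encodes the HIF-2 alpha subunit and is prominent in endothelial cells and fat, was the most abundant member at 162 ± 21.5 CPM per kb (mean ± SD, n = 10 mice), above 99.1% of the 30903 genes with a count and an annotated length. The oxygen sensor Egln1 followed at 117 ± 20.7, and Vegfa, the main growth factor for blood vessels, at 105 ± 18.3 CPM per kb. Bnip3, a mitochondrial outer membrane protein that promotes mitophagy, stood at 55.3 ± 12.8 and Hif1a at 11.5 ± 3.40 CPM per kb. Epas1 was thus far above Hif1a in every mouse, and Egln1 far above Egln3, another EGLN hydroxylase and itself a HIF target, at 5.58 ± 1.67 CPM per kb. Ndrg1, a stress-responsive gene induced by HIF, had 4.75 ± 1.15 CPM per kb. The lowest members were Ankrd37, which encodes an ankyrin repeat protein (0.670 ± 0.524), Adm, the precursor of the vasodilator adrenomedullin (0.611 ± 0.362), and Hif3a (0.0915 ± 0.0880 CPM per kb).

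The neighbours in this order were not all apart. Epas1 lay above Egln1 in 10 of 10 mice, and Vegfa above Bnip3, Bnip3 above Hif1a, Hif1a above Egln3, Ndrg1 above Ankrd37 and Adm above Hif3a likewise in 10 of 10. Egln1 exceeded Vegfa in 8, Egln3 exceeded Ndrg1 in 7 and Ankrd37 exceeded Adm in 6 of the 10 mice, so the order of these pairs changed between mice. No test was run on it. With the length of the longest transcript in place of the exonic union, Egln1 and Vegfa changed places, as did Egln3 and Ndrg1.

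**Figure D1:**
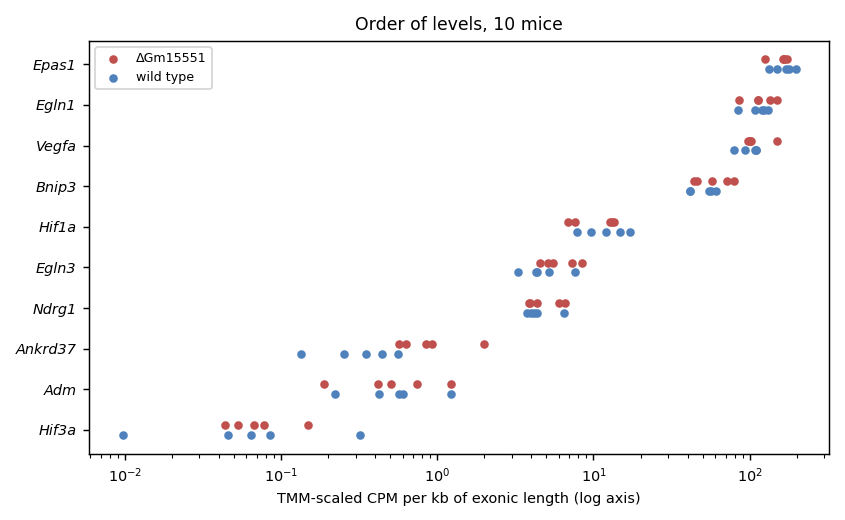
Each point is 1 mouse, with the level in TMM-scaled CPM per kb of exonic length on a log axis and the genes ordered by their mean over 10 mice (red, ΔGm15551; blue, wild type). Epas1, Egln1 and Vegfa sit at the top, Ankrd37, Adm and Hif3a at the bottom, and Ankrd37 is the member in which the red and blue points do not overlap.

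The mRNA of the 2 HIF alpha subunits that were tested did not separate the genotypes. Values are given as CPM for ΔGm15551 mice 1, 2, 4, 5 and 7 and then for wild type mice 2, 3, 5, 6 and 7, and this order is kept throughout. Hif1a stood at 45.2, 77.3, 79.9, 40.5 and 74.7 CPM in ΔGm15551 and at 56.6, 101.4, 71.4, 86.8 and 46.5 CPM in wild type mice. The low values came from both genotypes, and the difference between genotypes (log2 fold change, log2FC, ΔGm15551 minus wild type) was -0.19 (95% CI -0.71 to 0.32, adjusted p = 0.99998 by edgeR's quasi-likelihood test). Of the sequence words of 31 bases in the Hif1a transcripts, 6.72% also occurred in other genes, chiefly in Gm15283 on the opposite strand, which had 1 to 13 counts per mouse.

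Epas1 was measured at 701.5, 929.8, 928.3, 913.4 and 973.3 CPM in ΔGm15551 mice and at 832.6, 957.6, 999.5, 1102 and 739.9 CPM in wild type mice. The groups overlapped over most of their range, with the lowest mouse of each genotype (ΔGm15551 mouse 1 and wild type mouse 7) among the 3 mice that were highest in endothelial markers. Its log2FC was -0.06 (95% CI -0.36 to 0.24).

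Hif3a, whose products include short forms that oppose the other HIFs, had between 1 and 24 counts per mouse. Its levels were 0.294, 0.355, 0.521, 0.997 and 0.448 CPM in ΔGm15551 mice and 2.15, 0.428, 0.572, 0.0651 and 0.308 CPM in wild type mice. The highest and the lowest values both came from wild type mice, and at this depth no fold change was fitted.

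The oxygen sensors overlapped between genotypes as well. Egln1, the main hydroxylase that marks HIF alpha subunits for degradation, was at 307.0, 403.9, 486.6, 407.1 and 538.9 CPM in ΔGm15551 mice and at 388.6, 471.7, 445.0, 433.3 and 303.7 CPM in wild type mice. The 2 lowest values lay in ΔGm15551 mouse 1 and wild type mouse 7, and the log2FC was 0.07 (95% CI -0.28 to 0.42).

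Egln3 showed 14.7, 13.7, 22.5, 12.1 and 19.5 CPM in ΔGm15551 mice and 11.6, 13.9, 11.4, 8.79 and 20.3 CPM in wild type mice. The highest mouse of each genotype, ΔGm15551 mouse 4 and wild type mouse 7, was also the highest of its genotype in skeletal muscle markers, and the part of muscle RNA in these Egln3 values was not tested. With a muscle score as a covariate the log2FC was 0.35, against 0.33 (95% CI -0.15 to 0.81) without it. Single mice moved it more, to 0.19 without ΔGm15551 mouse 4, 0.21 without wild type mouse 6 and 0.53 without wild type mouse 7.

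Among the targets, Ankrd37 was the gene whose values chose the set, and its difference is given as a description with no test. It had 12, 20, 13, 17 and 41 counts in ΔGm15551 mice and 6, 8, 12, 6 and 2 counts in wild type mice. Scaled for depth, these were 0.881, 1.42, 0.967, 1.30 and 3.06 CPM in ΔGm15551 and 0.537, 0.685, 0.859, 0.391 and 0.205 CPM in wild type mice. Every ΔGm15551 mouse lay above every wild type mouse, but ΔGm15551 mouse 1 and wild type mouse 5, each with 12 counts, were nearly level. Of all genes tested, 31 (0.226%) had every ΔGm15551 mouse above every wild type mouse and 13 had every one below. The means were 1.53 ± 0.885 and 0.535 ± 0.253 CPM (SD, n = 5), a log2FC of 1.47 ± 0.43 (SE), and 1 gene tested had a higher log2FC.

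These counts are small, and the counting error is wide beside the gap. Before TMM scaling, the exact 95% binomial interval for the closest pair was 0.462 to 1.56 CPM in ΔGm15551 mouse 1 and 0.438 to 1.48 CPM in wild type mouse 5, while for the mice at the extremes, ΔGm15551 mouse 7 and wild type mouse 7, it was 2.04 to 3.85 and 0.0250 to 0.746 CPM. Such intervals cover counting error only. The filter asked for at least 0.748 CPM in 5 mice, which Ankrd37 met in all 5 ΔGm15551 mice and in 1 wild type mouse, so that it entered the test through the genotype in which it was high. Without ΔGm15551 mouse 7, the log2FC was 1.06.

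Ankrd37 is annotated on GRCm38 at chr8:45996902-46005707 on the minus strand and overlaps Lrp2bp and Ufsp2 on the other strand, with 406 exonic bases in common. Of its 31-base words, 21.4% occurred in other genes, most of them in Lrp2bp, which had 0 to 4 counts per mouse. Whether the counting used the strand is not stated, so reads of these bases cannot be assigned with certainty. Ufsp2, which encodes a protease of the ufmylation pathway, had 24.9 ± 2.40 CPM in ΔGm15551 against 27.2 ± 3.64 CPM in wild type mice, a log2FC of -0.13 ± 0.12 (SE).

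The remaining targets overlapped between genotypes. Vegfa reached 429.4, 431.6, 419.5, 436.0 and 644.9 CPM in ΔGm15551 mice and 461.5, 401.0, 473.4, 467.7 and 339.7 CPM in wild type mice. Mouse 7 of the ΔGm15551 group, the highest in Ankrd37, was also the highest in Vegfa, and wild type mouse 7 was the lowest in both. The log2FC of Vegfa was 0.14 (95% CI -0.18 to 0.46), and it was 0.001 without ΔGm15551 mouse 7 and 0.07 without wild type mouse 7.

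Adm was scarce, with 4 to 27 counts per mouse. Its values were 1.98, 1.21, 0.819, 0.307 and 0.671 CPM in ΔGm15551 mice and 1.97, 0.685, 0.358, 0.977 and 0.924 CPM in wild type mice. Both genotypes spanned nearly the same range, and the log2FC of 0.05 had the widest confidence interval of the members tested (95% CI -1.01 to 1.10).

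Bnip3 values were 99.8, 162.6, 129.9, 104.5 and 178.5 CPM in ΔGm15551 mice and 127.3, 138.2, 93.7, 125.0 and 93.3 CPM in wild type mice. ΔGm15551 mice 2 and 7 were above all wild type mice and the others lay among them, with a log2FC of 0.23 (95% CI -0.17 to 0.62). It was 0.10 without ΔGm15551 mouse 7, 0.15 without ΔGm15551 mouse 2 and 0.025 without wild type mice 5, 6 and 7. Its counts are uncertain, because 57.0% of its 31-base words occurred in other genes. Of its 2255 words, 46.7% were found in AC160336.1, a long non-coding gene of 93147 bases of transcript on chromosome 14 (chr14:44544055-44637201, minus strand), named here only after its values had been examined. That gene had 5288 to 10693 counts per mouse, and only 1.2% of its own words lay in Bnip3. The counts of both genes summed to 667 ± 120 CPM in ΔGm15551 against 725 ± 79.5 CPM in wild type mice. Bnip3 received 16.2% to 29.1% of the sum in ΔGm15551 mice and 13.95% to 18.2% in wild type mice.

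Ndrg1 fell into separate levels that did not follow genotype. It stood at 39.5, 25.8, 25.5, 43.6 and 28.9 CPM in ΔGm15551 mice and at 28.6, 24.7, 27.5, 26.2 and 42.9 CPM in wild type mice. The 3 high mice, ΔGm15551 mice 1 and 5 and wild type mouse 7, were the 3 highest in the endothelial and in the red blood cell markers, and the log2FC was 0.13 (95% CI -0.28 to 0.53).

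**Figure D2:**
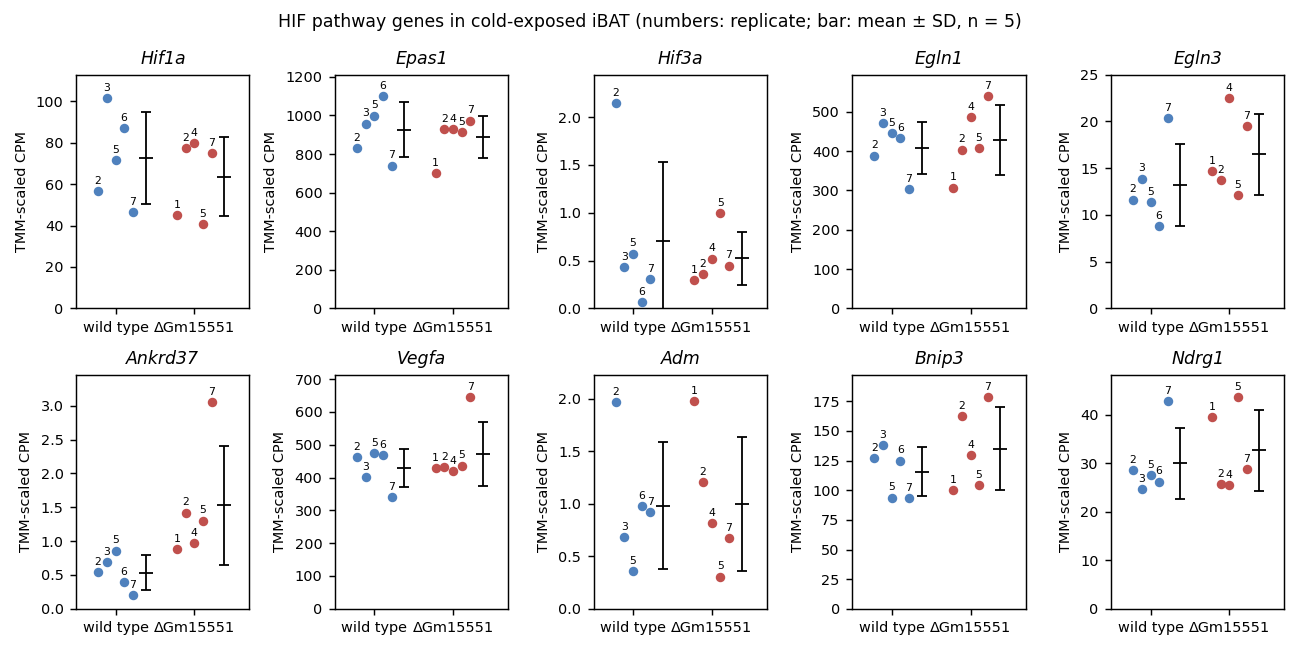
TMM-scaled CPM of each member in every mouse (blue, wild type; red, ΔGm15551; small numbers, replicate), with bars for the mean ± SD of 5 mice; the lower bar of Hif3a in wild type mice runs below 0 and ends at the axis. Ankrd37 alone shows no overlap, from 0.881 to 3.06 CPM in ΔGm15551 against 0.205 to 0.859 CPM in wild type mice.

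No member passed an adjusted p of 0.05, against 0 of 13733 genes tested (0.00%) by edgeR, DESeq2 or limma-voom, and 220 genes had an unadjusted p under 0.05. The deleted gene Gm15551, at 0 to 7 counts per mouse, was tested and not called either (adjusted p = 0.99998 by edgeR). At such low counts the lack of a call says little. Of the 9 members tested, 7 had a log2FC above 0 and 2 (Hif1a and Epas1) below 0, with a median of 0.13, while 49.7% of all genes tested were above 0, with a median of -0.001. Since these members were picked with results of this contrast known, nothing is read from their counts.

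**Figure D3:**
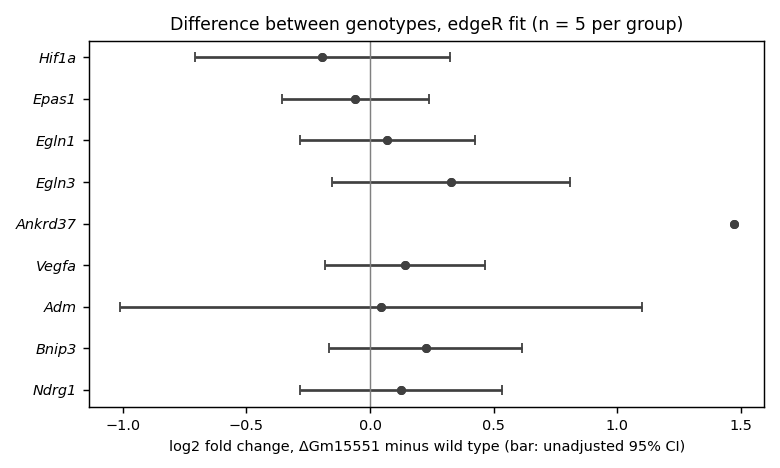
Log2 fold change of each tested member between ΔGm15551 and wild type mice, as points with unadjusted 95% confidence intervals from the edgeR fit of 5 against 5 mice. Ankrd37, whose values chose the set, is drawn as a point without an interval, and the intervals of the other 8 include 0, with that of Adm the widest.

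The other genes of the pathway gave the same picture of no call. Of 12 genes for oxygen sensing and HIF partners, 11 were tested, 0 passed and 0 had an unadjusted p under 0.05, with 7 above 0, 4 below and a median log2FC of 0.008. The extremes were Arnt, the common partner of the HIF alpha subunits, at 31.4 ± 2.53 CPM (ΔGm15551) and 33.9 ± 2.39 CPM (wild type), and the hydroxylase gene Egln2, at 67.6 ± 12.1 and 60.9 ± 11.2 CPM. Cul2, the scaffold of the ubiquitin ligase that removes hydroxylated HIFs, had 27.8 ± 5.50 and 25.9 ± 5.87 CPM. Arnt2 was not tested.

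A wider list held 28 HIF targets outside glycolysis, of which 24 were tested and 0 passed, with 14 above 0, 10 below and a median log2FC of 0.09. An unadjusted p under 0.05 was found for 3 of the 24, against 220 of the 13733 genes tested. The 3 with the smallest p had higher means in ΔGm15551 mice. Kdm3a, a histone demethylase gene, had 17.1 ± 1.72 CPM in ΔGm15551 against 13.9 ± 0.836 CPM in wild type mice (log2FC 0.30 ± 0.10, SE), and all 5 ΔGm15551 mice lay above all wild type mice, as in 0.226% of genes tested. Angptl4, an inhibitor of lipoprotein lipase, had 139 ± 24.9 and 101.5 ± 18.6 CPM (log2FC 0.45 ± 0.16), with 4 ΔGm15551 mice above all wild type mice. P4ha1, a subunit of a collagen prolyl hydroxylase, had 35.8 ± 7.71 and 28.2 ± 2.99 CPM (log2FC 0.35 ± 0.15), with 3 above. None of them passed after adjustment over all genes (adjusted p = 0.99998 by edgeR). Car9, Car12, Stc2 and Tmem45a were not tested.

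All 15 glycolytic HIF targets listed were tested and 0 passed, with 0 at an unadjusted p under 0.05. Of these, 8 were above 0 and 7 below, and the median log2FC was 0.0. The 3 with the smallest p were not on one side. The glucose transporter gene Slc2a3 had 2.14 ± 0.409 CPM in ΔGm15551 against 2.62 ± 0.503 CPM in wild type mice, hexokinase gene Hk2 had 485 ± 108 and 565.0 ± 97.3 CPM, and the aldolase gene Aldoa had 4399 ± 606 and 3951 ± 372 CPM.

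Mouse-to-mouse differences within a genotype were then compared. They are apart from the difference between genotype means, though spread within genotypes may have entered the order that picked Ankrd37. The SD of log2 CPM within genotypes, pooled over both, was 0.462 for Hif1a and 0.406 for Egln3, wider than for 94.1% and 90.0% of the 9810 genes with at least 5 CPM, and 0.337 for Ndrg1 (80.8%). Epas1 was steadier at 0.209 (42.8%), where the median gene had 0.226.

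After each genotype's mean was removed, 1 of 36 pairs of tested members, Hif1a and Ndrg1, passed a Benjamini-Hochberg adjusted p of 0.05 in an exact permutation test over all orders within genotypes (two-sided, Pearson and Spearman), and 10 pairs had an unadjusted Pearson p under 0.05. With a skeletal muscle score removed besides the genotype means, this pair did not pass (exact permutation, adjusted p = 0.1525) and 0 pairs did. Its coefficient weakened there. The 10 mice fall into separate clusters for Ndrg1, so no coefficient over all of them is given. The 3 mice at 39.5 to 43.6 CPM of Ndrg1 had 40.5 to 46.5 CPM of Hif1a, and the other 7 mice, at 24.7 to 28.9 CPM of Ndrg1, had 56.6 to 101.4 CPM of Hif1a.

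Within those 7 mice Hif1a and Ndrg1 still ran opposite, with Pearson r = -0.80 (exact permutation p = 0.0208, adjusted p = 0.583 over 36 pairs) and Spearman rho = -0.79 (exact permutation p = 0.0139, adjusted p = 0.50). Neither passed the adjustment, and 144 orders of 7 mice cannot give a p under 0.00694, which is too large for a single pair to pass over 36. Without wild type mice 2 and 3, the farthest from the median of Hif1a, r was -0.59 in 5 mice.

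The same 3 mice differed in other measures. Short genes (up to 2917 bp of exonic length) ran higher against long genes (from 7091 bp) in them, by 0.119, 0.286 and 0.222 on the log2 scale for ΔGm15551 mice 1 and 5 and wild type mouse 7, against -0.238 to 0.022 in the others. Endothelial and red blood cell markers were highest in these 3, as given above, while brown adipocyte markers, at 25940 to 29360 CPM in them, lay within the range of the other mice. The part of these measures in the Hif1a and Ndrg1 values was not tested. The 7 mice without these 3 were an alternative chosen after the data were seen.

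**Figure D4:**
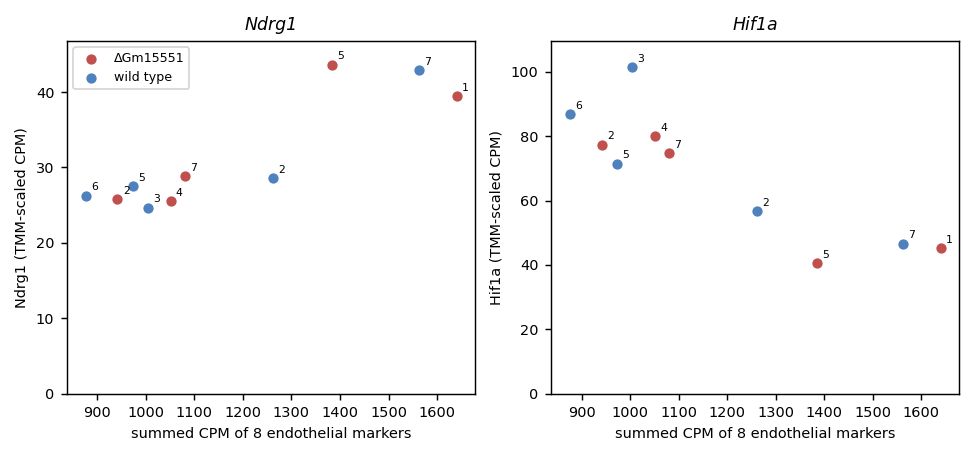
Ndrg1 (left) and Hif1a (right) in TMM-scaled CPM against the summed CPM of 8 endothelial markers, 1 point per mouse with its replicate number (red, ΔGm15551; blue, wild type). ΔGm15551 mice 1 and 5 and wild type mouse 7, at 1384 to 1640 CPM of the markers, are the highest in Ndrg1 and the lowest in Hif1a.

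Other pairs did not pass. By Pearson r, Epas1 and Egln1 came closest, with r = 0.86 (exact permutation p = 0.00319, adjusted p = 0.0575) and rho = 0.66 (exact permutation p = 0.0549, adjusted p = 0.29) over 10 mice, and r was 0.44 without ΔGm15551 mouse 1 and wild type mouse 7. Hif1a gave r = 0.77 with Egln1 (exact permutation p = 0.0175, adjusted p = 0.142) and rho = 0.59 (exact permutation p = 0.11, adjusted p = 0.306), and r = 0.72 with Epas1 (exact permutation p = 0.0265, adjusted p = 0.142) and rho = 0.54 (exact permutation p = 0.139, adjusted p = 0.333). Without ΔGm15551 mice 1 and 5 these r were 0.77 and 0.82, and within the 7 mice named above they were 0.47 and 0.61. The pairs with Ankrd37 use its deviations from each genotype's mean, which removes the difference between the means. Centring does not remove the spread within genotypes, which may have entered the order that picked this gene. The coefficients of its pairs are therefore given as a description with no test. These pairs remain in the pair counts and in the adjustment given above. Ankrd37 and Vegfa gave r = 0.83 and rho = 0.84. Without ΔGm15551 mouse 7 and wild type mouse 7, r was -0.08, so this relation rested on those mice. Ankrd37 and Egln1 gave r = 0.75 and rho = 0.67, and r was 0.29 without the same mice.

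**Figure D5:**
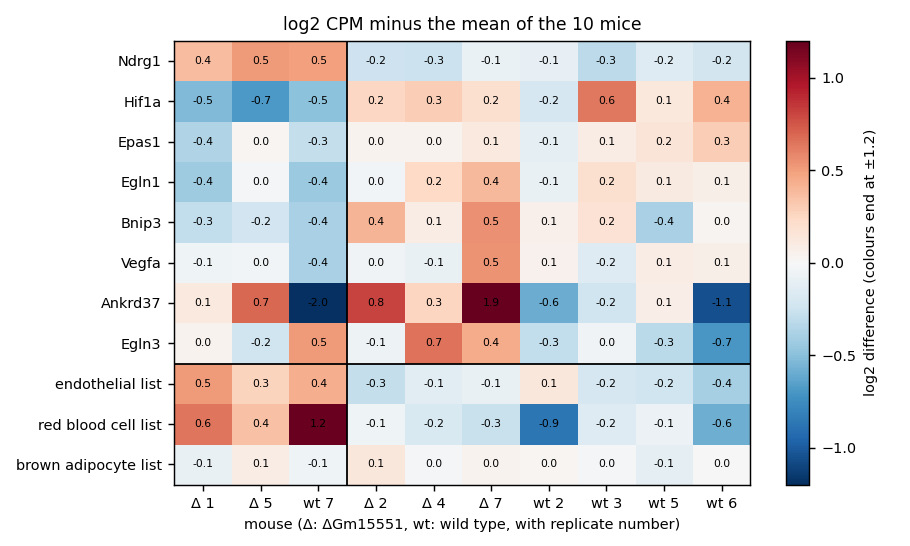
Log2 CPM of each mouse minus the mean over 10 mice, for 8 members and for the summed level of 3 marker lists, with red above and blue below the mean and the value in each cell. The 3 mice left of the line (ΔGm15551 1 and 5, wild type 7) are high in Ndrg1, endothelial and red blood cell markers and low in Hif1a, while Ankrd37 is farthest from its mean in ΔGm15551 mouse 7 and wild type mice 6 and 7.

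The genes whose pattern was most like that of Ankrd37 within genotypes were sought among 9500 protein-coding genes with at least 5 CPM, by Pearson r of genotype-centred log2 CPM over 10 mice. They were Apool (0.93), Eif2b1 (0.93), Slc22a3 (0.92), Bcl6 (0.92) and Gpkow (0.91). All of them were highest, within their ΔGm15551 group, in mouse 7, and without that mouse r was 0.88 to 0.89 over 9 mice. The genes were picked by r over these same mice, so the peak and the high r follow in part from that choice. Apool, at 34.3 to 53.2 CPM in ΔGm15551 against 37.9 to 49.1 CPM in wild type mice, and Bcl6, a transcriptional repressor gene at 46.7 to 73.1 and 39.5 to 64.8 CPM, overlapped between genotypes. These coefficients describe 10 libraries, share the few counts of Ankrd37 and carry no test.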

How the data were processed

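RNA of iBAT from 10 cold-exposed mice was measured. Per the labels and the study's methods, poly A RNA was made into NEBNext Ultra II libraries and sequenced in paired-end reads, which the authors trimmed with cutadapt and quantified with salmon on a GENCODE transcriptome of GRCm38. The tool versions and the use of strand are not given in the sources used here. The values deposited by the authors were estimated counts (expected counts) per gene, as whole numbers with 1 column per mouse and no scaling. Salmon divides a read that fits several transcripts by an estimate of their abundance.

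Genes were kept by filterByExpr (minimum count 10, minimum total count 15), with Gm15551 kept as the target, and 13733 were scaled by TMM and fitted with genotype as the only term in edgeR 4.0.16 (R 4.3.3; glmQLFit, robust, glmQLFTest, two-sided), with Benjamini-Hochberg adjustment over all of them and a threshold of 0.05. The procedure was tested on simulated data. No 2 libraries of a group agreed within sampling noise. The labels do not say how mice share litters, so p-values measure the spread between these mice. By the animal identification numbers in the labels, which are not the replicate numbers, the mice fall into a lower series and a higher one with wild type mice 5, 6 and 7 only, within which genotypes cannot be compared. Alternatives were DESeq2 1.42.0, limma-voom (limma 3.58.1), other scalings and filters, non-robust estimation, left-out mice, a replicate block and a muscle or endothelial score as a covariate. Pairs of members used log2 CPM with a prior count of 2.

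Exonic lengths, positions and 31-base words came from GENCODE M21 on GRCm38 (99.5% of gene IDs found), and promoter windows from RefSeq on GRCm38.p6. The study's methods name a later GENCODE release for the counting, alone or joined with RNAcentral. Lengths and shared words may therefore differ from those of the transcripts counted.

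The members and gene lists were chosen with earlier results of these data known. Named were the members, Gm15551, Ufsp2 as the neighbour of Ankrd37, the 3 genes of smallest p in each further list without a call, and the 5 genes most like Ankrd37 in pattern. AC160336.1, Lrp2bp, Gm15283 and the untested list genes fall outside this rule. The first 3 were named for the sequence they share with a member.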

Additional observations from a re-analysis of the deposited data

Results flagged for a closer look

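Within each genotype of 5 mice, the highest and the lowest mouse were compared with the rest by Dixon's ratio (critical value 0.71) for the genes named and the summed marker lists. Of 64 groups searched 9 stood out, where 1 in 20 groups would give about 3.2. These numbers are not a test, since the groups share the same mice. Ankrd37 was also picked by its own values, and Gpkow for its likeness to Ankrd37.

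Mouse 7 of the ΔGm15551 group stood apart at 3.06 CPM of Ankrd37, where the next mouse had 1.42 CPM, and at 644.9 CPM of Vegfa, where the next had 436.0 CPM. ΔGm15551 mouse 1 stood apart at 701.5 CPM of Epas1, below 913.4 CPM in the next mouse.

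Wild type mouse 7 stood apart at 42.9 CPM of Ndrg1 (next 28.6 CPM), at 18.1 CPM of Gpkow, one of the genes most like Ankrd37 (next 25.3 CPM), at 2616 CPM of summed skeletal muscle markers (next 230 CPM) and at 2547 CPM of summed red blood cell markers (next 1068 CPM). Wild type mouse 2 stood apart at 2.15 CPM of Hif3a (next 0.572 CPM) and at 404.7 CPM of summed stromal markers (next 240.5 CPM).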

How the results depend on the processing

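In 23 alternative fits, 0 genes, members or genes of the 3 further lists passed the adjusted threshold, and leaving out each mouse in turn gave 0 to 0. The log2FC of Ankrd37 was 1.06 to 1.77 in the 22 that tested it. Its direction was fixed by how the gene was picked, so this range is no sign of stability. Bnip3, Egln3 and Vegfa were above 0 in all 23, at 0.025 to 0.503, 0.071 to 0.703 and 0.001 to 0.246. Leaving out single mice moved Hif1a from -0.316 to -0.042, and moved 4 members across 0, namely Epas1 (-0.13 to 0.016, the latter without ΔGm15551 mouse 1), Egln1 (-0.027, without ΔGm15551 mouse 7, to 0.169), Ndrg1 (-0.003, without ΔGm15551 mouse 5, to 0.287) and Adm (-0.357, without ΔGm15551 mouse 1, to 0.446). The genotype log2FC was 0.009 for Epas1 without wild type mouse 6 and -0.020 for Egln1 without wild type mouse 7, and for Adm it was -0.036, -0.059 and -0.181 without ΔGm15551 mouse 2, wild type mouse 3 and wild type mouse 5. With wild type mice 5, 6 and 7 (the higher identification numbers) all left out, it was -0.004 for Egln1 and -0.398 for Adm.

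Mice with the same replicate number did not deviate together (r = -0.0653, 0.0537 and -0.395 for numbers 2, 5 and 7). These values cannot show whether the mice were paired by litter or handling. With the replicate block in these 6 mice the log2FC was 0.112 for Hif1a, 0.141 for Epas1, -0.018 for Ndrg1 and -0.510 for Adm, and without the block in the same mice it was 0.140, 0.130, -0.009 and -0.531, with 0 genes called in both. Among alternatives chosen after the data were seen, the 3 mice highest in endothelial markers left out gave -0.002 for Ndrg1 and -0.117 for Adm, and an endothelial score as a covariate gave 0.009 for Hif1a, 0.037 for Epas1, -0.033 for Ndrg1 and -0.122 for Adm.

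The single related pair of members held in each fit without 1 mouse (1 to 1 pairs). The number of pairs became 0 with the muscle score removed, where the coefficient of this pair weakened. It was also 0 without those 3 mice, where 7 mice do not allow a single pair to pass. Longest transcripts changed the place of 4 members in the order of levels. The cause of these changes was not tested. Depth limits Ankrd37, Adm and Hif3a, each under 50 counts in every mouse.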
